A study of Mus musculus with 39 samples.

Results

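All EPAT arms of a mouse melanoma experiment were compared with all arms without EPAT, using 20 tumour libraries with EPAT in the treatment and 19 without it, out of 39 in all. EPAT is a combination of drugs that block EP2 and EP4, which are receptors for prostaglandin E2. The EPAT arms were EPAT on day 2, anti-PD-1 plus EPAT on day 2, EPAT on day 5 and anti-PD-1 plus EPAT on day 5, with 5 libraries each. The arms without EPAT were vehicle on day 2, anti-PD-1 on day 2, vehicle on day 5 and anti-PD-1 on day 5, with 5 libraries each except for 4 of anti-PD-1 on day 2. All tumours were a Braf-mutated melanoma in C57BL/6 mice, and dosing started 7 days after the tumour cells were injected. Each EPAT dose was 30 mpk in 200 µl of a 3 mg/mL stock, and the vehicle was a DMSO, PEG400 and water mixture in the same volume. Anti-PD-1, which blocks the T cell checkpoint receptor PD-1, was given at 200 µg per dose. No dose volume is given for the arms of anti-PD-1 alone, so whether those mice also received the vehicle mixture is not known here. The extraction protocol places tumour isolation on a day that matches neither time point, and the time point given for each tumour was used. Whether each library is a separate animal is not stated in the labels, so a p-value here describes only the spread among these libraries, which may be technical.

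Prostaglandin E2 is a lipid made by cyclooxygenases and prostaglandin E synthases in inflamed tissue and in many tumours. Through EP2 and EP4 it raises cyclic AMP, which activates protein kinase A and the transcription factor CREB, and it is known to dampen type 1 immunity by T cells, natural killer cells, dendritic cells and macrophages. Type 1 immunity includes interferon-gamma and the chemokines and antigen presentation genes that interferons induce. The comparison asks how tumour RNA differs with these receptors blocked, averaged over day and over antibody treatment.

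RNA was measured by 3' tag sequencing, in which each transcript gives tags near its poly(A) end, so counts carry no gene length term. Library totals ranged from 8895991 to 14943145 counts in the EPAT arms and from 8385741 to 15558113 in the arms without EPAT. Levels are in CPM, relative to the total count of a library after TMM scaling. In bulk tumours, fewer cells of a type and less RNA per cell cannot be told apart. Of 12 melanocyte genes only Mitf, Sox10, Kit and Ednrb were measured, and the pigment genes Pmel, Tyr, Tyrp1, Dct and Mlana were below the filter in these melanomas. Mitf, the melanocyte lineage factor, was at 30.5 to 82.4 CPM (median 51.0) in the EPAT arms and at 32.4 to 71.4 CPM (median 43.3) in the arms without EPAT. Some libraries stood apart: vehicle day 2 replicate 1 in B cell and adipocyte genes, vehicle day 2 replicate 2 and anti-PD-1 plus EPAT day 5 replicate 3 in keratinocyte genes, and anti-PD-1 plus EPAT day 2 replicate 2 with the lowest T cell score and the highest hypoxia score. Lung transcripts were at 50.2 to 151 CPM in 23 libraries (11 with EPAT, 12 without) and at 0.162 to 1.19 CPM in the other 16.

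Averaged over day and antibody, EPAT was followed by little change in single genes. Of 15070 genes tested, 1 changed at an adjusted p under 0.05 (0.00664%), by edgeR's quasi-likelihood test with Benjamini-Hochberg adjustment, with day and anti-PD-1 as covariates. That gene was Slc22a3, a transporter of organic cations including monoamines, at chr17:12418960-12507704 on the minus strand of GRCm38. Slc22a3 counts ran from 0 to 6 (median 1) in the 20 EPAT libraries, summing to 33, with 8 libraries at 0. In the 19 libraries without EPAT they ran from 0 to 73 (median 5) and summed to 239, with 1 library at 0. Its level was lower in the EPAT arms (log2 fold change -2.84 ± 0.52 SE, adjusted p = 0.0484), and 1 EPAT library of 20 was above the median of the others. The ranges overlapped, since low counts occurred in both sets of arms. Slc22a3 lies below the level set for naming genes and is named here after its values were seen, because it is the single gene that passed. The call rested on few counts: it remained in 11 of the 39 fits that each left out 1 library, and it was lost (-1.55, adjusted p = 0.113) when the adipocyte score of each library was added to the model, an alternative chosen after seeing the data. Over all alternatives and left-out libraries its adjusted p ran from 0.00174 to 0.999.

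The absence of further calls came with narrow intervals. At an unadjusted p under 0.05, 878 genes (5.83%) differed, 333 higher (2.21%) and 545 lower (3.62%) in the EPAT arms. The median log2 fold change of all genes tested was -0.02 and the median SE was 0.121. For 14015 genes (93%) the 95% interval lay wholly within 1 log2 unit of 0, and for 10331 genes (68.6%) within 0.5. A 2-fold difference averaged over the arms was therefore outside the interval of most genes. These intervals do not cover differences in some arms only. DESeq2 called 5 genes, all lower: Slc22a3, Cfd, Igkc, Prdm16 and Adipoq. Limma-voom with sample quality weights, which gives less weight to libraries far from the others, called 41 genes, 34 higher and 7 lower, and limma-trend on the deposited log2 values called 0.

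The genes with the smallest p in each direction did not pass the adjusted threshold. C3ar1, the receptor for the complement fragment C3a on myeloid cells, was at 181 to 515 CPM (median 256) in the EPAT arms and at 122 to 349 CPM (median 192) in the arms without EPAT. Of the 20 EPAT libraries, 19 were above the median of the others, and the ranges overlapped. Its log2 fold change was 0.40 ± 0.10 SE (edgeR adjusted p = 0.455). Cd40, the costimulatory receptor of antigen-presenting cells, was at 10.7 to 58.3 CPM (median 29.6) in the EPAT arms and at 8.60 to 39.5 CPM (median 16.1) without EPAT, with a log2 fold change of 0.63 ± 0.17. Both genes were higher in the EPAT group of all 4 pairs of EPAT arm and matched control, a pattern that 1216 of all genes tested (8.07%) showed. Both passed under limma-voom with quality weights, at 0.44 and 0.75 on the log2 scale. The 95% interval of the log2 fold change was 0.19 to 0.60 for C3ar1 and 0.28 to 0.98 for Cd40.

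Enox2, a surface NADH oxidase, was at 22.9 to 40.6 CPM (median 29.8) in the EPAT arms and at 16.5 to 33.8 CPM (median 24.9) in the arms without EPAT. Of the 20 EPAT libraries, 17 were above the median of the others, and the log2 fold change was 0.27 ± 0.07 SE. The mitochondrial isoleucine tRNA gene mt-Ti had a log2 fold change of 1.05 ± 0.28, at 1.23 to 14.6 CPM (median 3.66) with EPAT and 0.629 to 4.92 CPM (median 1.61) without EPAT. It is a short gene that abuts its neighbours, and with the strand setting of the counting unknown its reads cannot be assigned with certainty.

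On the lower side, Prdm16, a transcriptional regulator of brown and beige fat identity, was at 4.97 to 8.38 CPM (median 6.25) in the EPAT arms and at 5.78 to 12.9 CPM (median 7.87) in the arms without EPAT. A single EPAT library was above the median of the others, and the log2 fold change was -0.41 ± 0.09 SE (edgeR adjusted p = 0.253). Ube2d1, a ubiquitin-conjugating enzyme, was at 15.1 to 28 CPM (median 20.7) with EPAT and at 15.4 to 35.2 CPM (median 25.7) without EPAT, with a log2 fold change of -0.30 ± 0.08. Rorb, a nuclear receptor that binds clock gene promoters, was at 4.52 to 24.9 CPM (median 13.9) with EPAT and 4.57 to 32.4 CPM (median 22.5) without EPAT. These ranges overlap almost fully, and what differs is where most libraries sit within them. All of Prdm16, Ube2d1 and Rorb passed under limma-voom with quality weights.

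**Figure D1:**
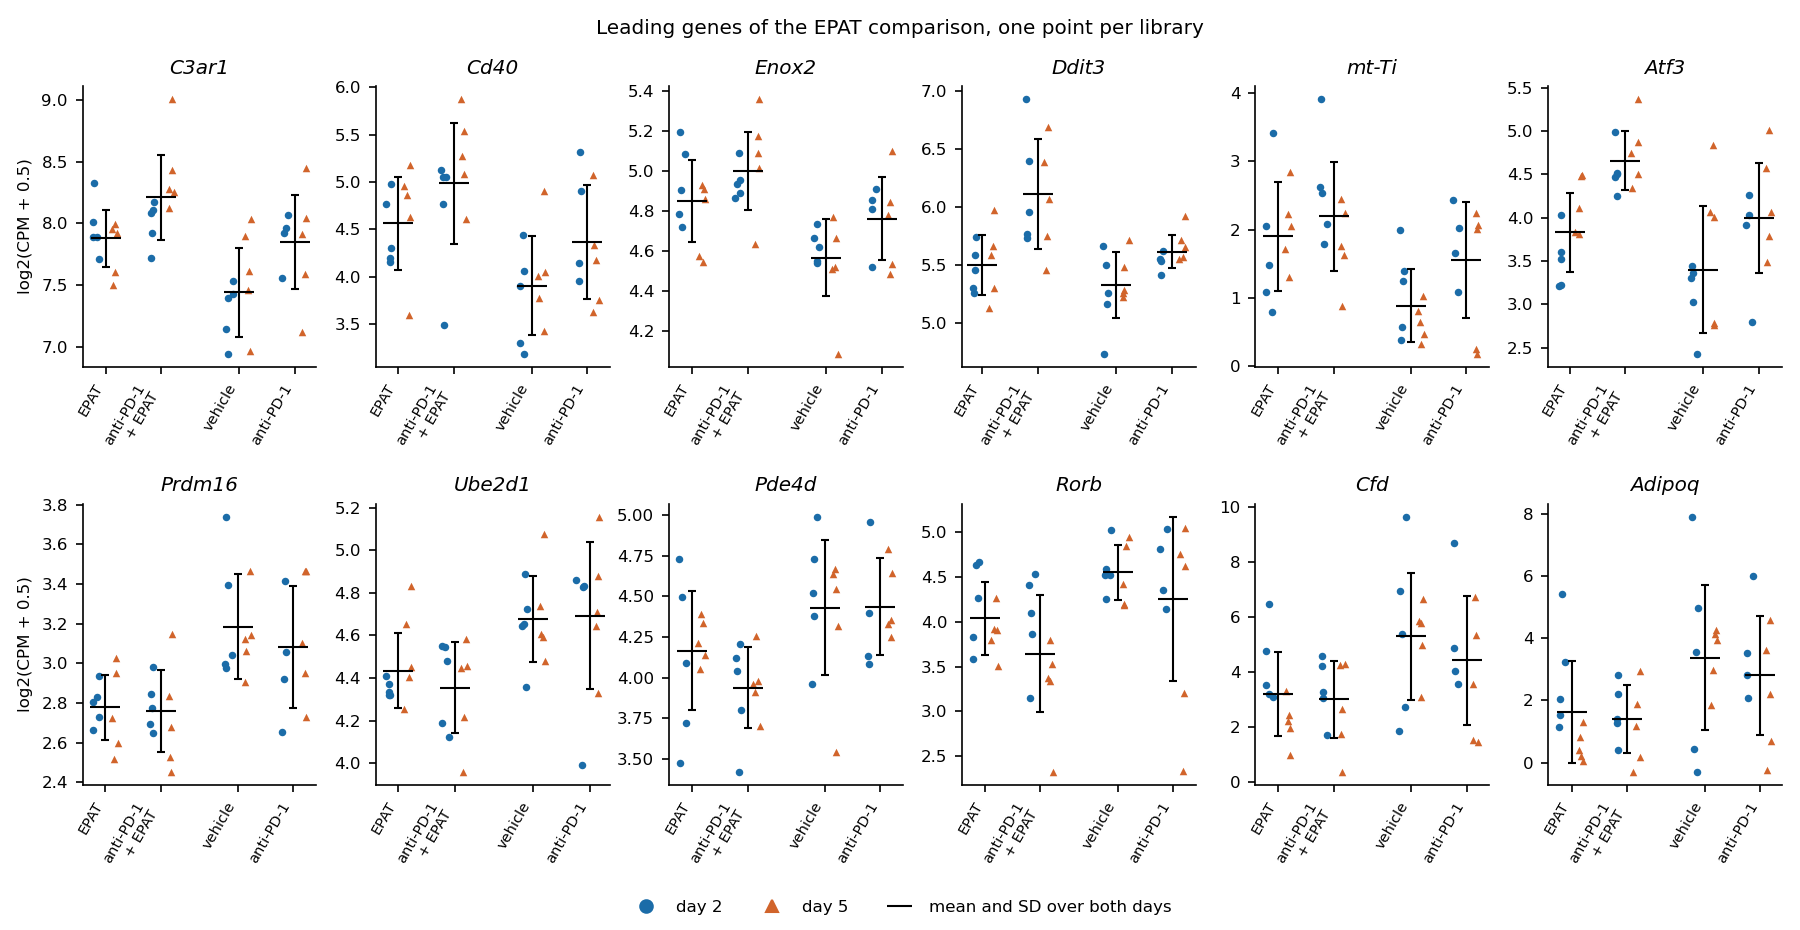
Level of 12 genes in each library as log2(CPM + 0.5), with the EPAT and anti-PD-1 plus EPAT groups left of vehicle and anti-PD-1, circles for day 2, triangles for day 5, and bars for mean and SD over both days. The EPAT and control libraries overlap in every panel, and the shifts are small except for Cfd and Adipoq, whose highest control libraries reach 805 and 239 CPM.

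The targets of the drugs were present in the tumours. Ptger4, which encodes EP4, was at 11.8 to 49.4 CPM (median 18.8) in the EPAT arms and at 8.74 to 48.1 CPM (median 15.2) in the arms without EPAT. Ptger2, which encodes EP2, was at 0.264 to 3.32 CPM (median 1.6) with EPAT and at 0.322 to 4.75 CPM (median 1.62) without EPAT. Neither passed: the log2 fold change was 0.26 ± 0.15 SE for Ptger4 and -0.01 ± 0.26 for Ptger2, with 95% intervals of -0.05 to 0.57 and -0.54 to 0.53. Ptgs2, the inducible cyclooxygenase, was at 40.2 to 320 CPM (median 71.8) with EPAT and at 25.1 to 178 CPM (median 85.5) without EPAT, a log2 fold change of -0.09 ± 0.25. Ptges, a prostaglandin E synthase, and Hpgd, which degrades prostaglandins, had log2 fold changes of -0.08 ± 0.10 and -0.12 ± 0.34. None of the 14 genes of prostaglandin E2 receptors and metabolism reached an unadjusted p under 0.05, and 3 of 14 were higher, with a median log2 fold change of -0.08.

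The genes downstream of cyclic AMP and CREB, the pathway that EP2 and EP4 raise, did not move one way. Of 24 such genes 0 passed by edgeR and 9 were higher, with a median log2 fold change of -0.02, close to -0.02 for all genes tested. At an unadjusted p under 0.05, Atf3 was higher and Pde4d and Thbd lower (12.5% of the list, against 5.83% of all genes). Pde4d, a phosphodiesterase that breaks down cyclic AMP and is induced by it, was at 10.2 to 26.1 CPM (median 16.3) in the EPAT arms and at 11.2 to 31.3 CPM (median 20.6) in the arms without EPAT. Its log2 fold change was -0.40 ± 0.11 SE (adjusted p = 0.559), with 2 of 20 EPAT libraries above the median of the others. Pde4d was lower in the EPAT group of all 4 pairs, as were 1233 of all genes (8.18%). Within the pairs its log2 differences were -0.41 for EPAT over vehicle and -0.48 for anti-PD-1 plus EPAT over anti-PD-1 on day 2, and -0.12 and -0.51 on day 5. Pde3b, another cyclic AMP phosphodiesterase, had -0.15 ± 0.07, and thrombomodulin (Thbd) -0.38 ± 0.15. The phosphodiesterases Pde4a and Pde4b differed in sign between pairs. In the same order of pairs Pde4a had -0.10, 0.425, -0.08 and -0.02, and Pde4b -0.05, -0.06, 0.34 and -0.20. Among other well-known CREB targets the log2 fold change was 0.01 ± 0.11 for Crem, -0.11 ± 0.31 for Nr4a1 and -0.08 ± 0.14 for Per1. These averages cover pairs that differed in sign. Nr4a1 had log2 differences of -0.89 for EPAT over vehicle and 0.27 for anti-PD-1 plus EPAT over anti-PD-1 on day 2, and 1.00 and -1.22 on day 5. In the same order 5, 16, 17 and 3 of the 24 genes were higher, with medians of -0.14, 0.10, 0.23 and -0.28. Of all 15070 genes tested, 7172, 7604, 7442 and 7630 were higher in these pairs.

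The cyclic AMP response element TGACGTCA, searched on both strands of RefSeq promoters (250 bases before to 50 after each gene start, GRCm38.p6), was in 2 of the 19 promoters found for this list (10.5%) and in 549 of 27025 promoters of all genes (2.03%). The 2 promoters, Areg and Dusp1, are shown because they carry the canonical element and neither gene passed over all arms. Areg encodes the growth factor amphiregulin and Dusp1 a phosphatase of MAP kinases. Capitals mark the element, in chr5:91139492-91139591 on the plus strand for Areg and chr17:26508562-26508661 on the minus strand for Dusp1.
Areg: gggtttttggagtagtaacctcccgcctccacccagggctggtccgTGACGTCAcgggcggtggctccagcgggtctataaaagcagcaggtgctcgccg
Dusp1: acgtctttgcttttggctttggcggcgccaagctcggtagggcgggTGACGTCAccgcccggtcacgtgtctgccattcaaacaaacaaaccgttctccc
Areg had a log2 fold change of -0.05 ± 0.18 SE and Dusp1 of 0.10 ± 0.18. The average of Dusp1 covers log2 differences of -0.43 and 0.75 on day 2 and 0.48 and -0.66 on day 5, EPAT over vehicle first. Those of Areg were 0.02 and 0.10 on day 2 and -0.10 and -0.09 on day 5. A match describes these letters only.

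Every measured member of the interferon-response and type 1 chemokine and cytokine lists was higher by fold in the EPAT arms, though none passed (edgeR). All 24 type I interferon response genes were higher in the EPAT arms, with a median log2 fold change of 0.36, and 8 of 24 reached an unadjusted p under 0.05, against 2.21% of all genes that did so on the higher side. All 21 interferon-gamma response genes were higher (median 0.36), with 2 of 21 at an unadjusted p under 0.05. All 13 type 1 chemokine and cytokine genes were higher (median 0.36), with 5 of 13. Genes of these lists vary together between tumours, so the members are not independent.

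Irf7, a transcription factor of the type I interferon loop, was at 25.9 to 171 CPM (median 83.1) in the EPAT arms and at 23.2 to 126 CPM (median 49.5) in the arms without EPAT. The log2 fold change was 0.47 ± 0.19 SE (edgeR adjusted p = 0.822), and 16 of 20 EPAT libraries were above the median of the others. Rsad2, the antiviral protein viperin, was at 24.6 to 178 CPM (median 66.8) with EPAT and at 19 to 136 CPM (median 47.1) without EPAT, a log2 fold change of 0.50 ± 0.19. Usp18, which removes ISG15 from proteins, had 0.49 ± 0.19, and Isg15 itself 0.55 ± 0.27. The spread within each set of arms was several times the shift between them.

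The core of the interferon-stimulated response element, GAAA followed by any 2 bases and GAAA on either strand, was found in 11 of the 18 promoters of this list (61.1%) and in 1079 of 27025 promoters of all genes (3.99%). Windows of Isg15, Rsad2 and Ifit1 are shown as the members with a match and the largest fold changes, apart from Ifit3b, whose window repeats that of its near-identical copy Ifit3. Capitals mark the core or its reverse complement, and the cores of Isg15 overlap. The windows lie at chr4:156200842-156200941 on the minus strand for Isg15, chr12:26456518-26456617 on the minus strand for Rsad2 and chr19:34640740-34640839 on the plus strand for Ifit1.
Isg15: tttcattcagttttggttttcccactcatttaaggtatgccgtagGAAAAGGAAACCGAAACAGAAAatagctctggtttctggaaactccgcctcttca
Rsad2: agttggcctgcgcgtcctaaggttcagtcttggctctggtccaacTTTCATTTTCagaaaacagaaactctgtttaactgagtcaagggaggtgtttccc
Ifit1: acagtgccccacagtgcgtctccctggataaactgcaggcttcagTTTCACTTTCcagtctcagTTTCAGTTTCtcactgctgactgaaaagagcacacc
Ifit1, an antiviral RNA-binding protein, had a log2 fold change of 0.45 ± 0.24 SE.

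Among chemokines and cytokines, Ccl4, a chemokine that draws T cells and natural killer cells, was at 6.23 to 92.8 CPM (median 44.5) in the EPAT arms and at 10.6 to 57.4 CPM (median 32.1) in the arms without EPAT. Its log2 fold change was 0.55 ± 0.19 SE (edgeR adjusted p = 0.693), with 17 of 20 EPAT libraries above the median of the others. Cxcl10, a ligand of CXCR3, was at 9.08 to 278 CPM (median 97.0) with EPAT and at 31.1 to 177 CPM (median 66.1) without EPAT, a log2 fold change of 0.58 ± 0.24. Ccl3, Tnf and Cxcl9 had 0.54 ± 0.22, 0.45 ± 0.19 and 0.33 ± 0.22. The lowest values of Ccl4 and Cxcl10 came from 1 library, anti-PD-1 plus EPAT day 2 replicate 2. Cd274, which encodes PD-L1, the ligand of the receptor that the antibody blocks, was at 17.4 to 218 CPM (median 62.3) with EPAT and at 10.9 to 124 CPM (median 47.4) without EPAT, a log2 fold change of 0.58 ± 0.23.

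Antigen presentation by MHC class I was higher for 16 of 17 genes (median 0.19). Of the 17, 4 (23.53%) were higher at an unadjusted p under 0.05, against 2.21% of all genes. Tap1, the peptide transporter, was at 68.0 to 304 CPM (median 171) in the EPAT arms and at 58.4 to 245 CPM (median 117) in the arms without EPAT, with 18 of 20 EPAT libraries above the median of the others. Tap1 had a log2 fold change of 0.38 ± 0.15 SE, the tapasin relative Tapbpl 0.36 ± 0.15, the light chain B2m 0.26 ± 0.11 and the chaperone calreticulin (Calr) 0.14 ± 0.06. Of MHC class II genes 8 of 10 were higher (median 0.20). T cell genes were higher for 17 of 19 (median 0.18) with 0 at an unadjusted p under 0.05 by edgeR. Cd8a, the CD8 chain of cytotoxic T cells, was at 0.0917 to 74.9 CPM (median 24.4) in the EPAT arms and at 6.72 to 93.4 CPM (median 15.5) in the arms without EPAT. Its log2 fold change was 0.40 ± 0.29, and its lowest value was again in anti-PD-1 plus EPAT day 2 replicate 2. Among 18 cytotoxic lymphocyte genes 14 were higher (median 0.28), including the granule gene Nkg7 (0.49 ± 0.24), the activating receptor Klrk1 (0.42 ± 0.20), granzyme B (Gzmb, 0.45 ± 0.27) and interferon-gamma (Ifng, 0.36 ± 0.31). The granzyme genes Gzmd, Gzme and Gzmf were lower in all 4 pairs, 3 of 18 (16.7%, against 8.18% of all genes). Higher in all 4 were 2 of 18 (11.1%, against 8.07%). Pdcd1, the gene of PD-1, had 0.33 ± 0.27.

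**Figure D2:**
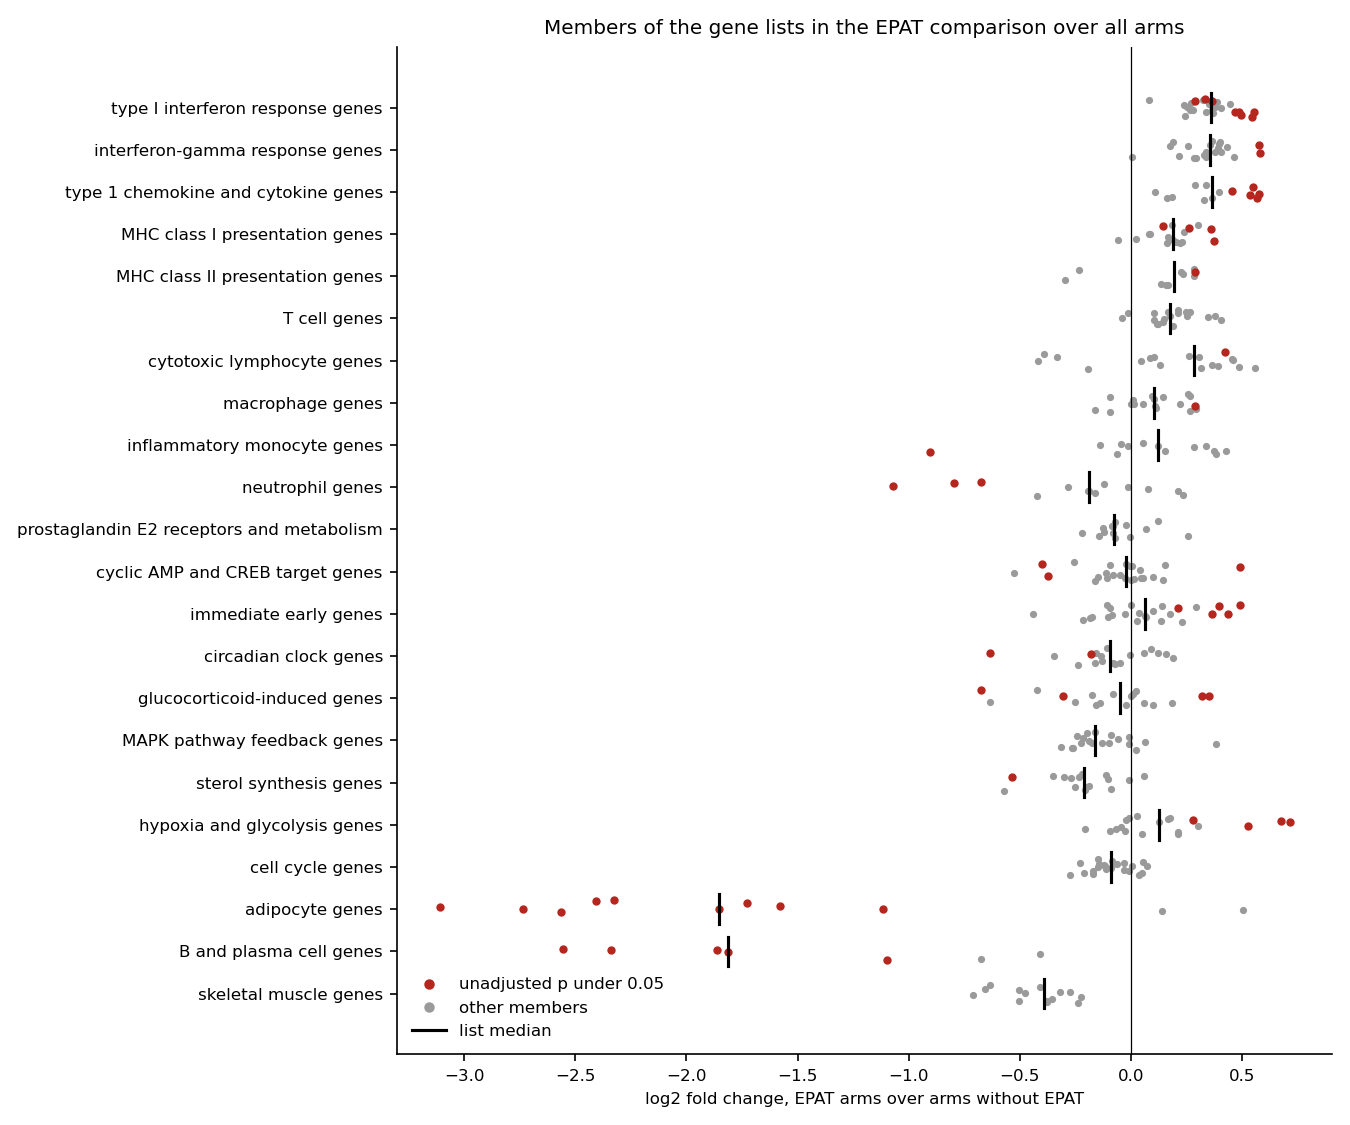
Each point is 1 measured gene of a list, placed by its log2 fold change of EPAT arms over arms without EPAT, with red for an unadjusted p under 0.05 and a black line for the list median. The interferon and chemokine lists lie wholly to the right of 0, while most sterol synthesis, adipocyte and B cell genes lie to the left.

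Lung transcripts split the libraries into 2 classes, and the values within each class differed between lists. The classes followed the sample number that ends each sample title: every library of the lower numbers had lung transcripts, and apart from a pair just past them none of the higher numbers did. The labels do not say what this number marks, so lung content and whatever the number marks cannot be told apart. The 2 classes do not cover the same arms, because every anti-PD-1 day 2 library had lung transcripts. The class without them held anti-PD-1 plus EPAT day 2 replicates 2 and 3 but no library of their control group. Of these, replicate 2 had a T cell score of 0.542 and a cytotoxic score of 1.273. In the 23 libraries with lung transcripts the median log2 fold change was 0.39 for type I interferon response genes, 0.46 for interferon-gamma response genes and 0.35 for MHC class I genes. In the 16 libraries without them it was 0.31, 0.27 and -0.01. T cell genes had 0.34 and 0.01, and cytotoxic genes 0.51 and -0.02, in the same order of classes. Thus the interferon lists were higher in both classes, and the MHC class I, T cell and cytotoxic medians were near 0 in the class without lung transcripts. The part of this difference between classes in the EPAT comparison was not tested. Without the 3 libraries with B cell, adipocyte or keratinocyte content, the medians were 0.29, 0.32, 0.12, 0.19 and 0.19 for these 5 lists.

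The average hid different values in the 4 pairs of an EPAT arm and its own control, which share no libraries. Of all 15070 genes tested, 7172 and 7604 were higher on day 2 and 7442 and 7630 on day 5, EPAT over vehicle first. For type I interferon response genes, 24 of 24 were higher in EPAT than in vehicle on day 2, with a median difference of 0.81 between group means of log2(CPM + 0.5). In anti-PD-1 plus EPAT against anti-PD-1 on day 2, 12 of 24 were higher, with a median of 0.02. Replicate 2 of that combination group had a type I interferon score of 3.898, where the others had 5.264 to 6.459. Replicate 5 of its control group had 6.353, where the others had 4.615 to 4.966. The part of these libraries in that median was not tested. On day 5 the values were 10 of 24 and -0.01 for EPAT against vehicle, and 23 of 24 and 0.40 for anti-PD-1 plus EPAT against anti-PD-1. So the medians were 0.81 and 0.40 in 2 pairs and near 0 in the others. These differences of group means do not add up to the fitted average. By the fits, the median log2 fold change was 0.415 without anti-PD-1 and 0.297 with it, with 24 and 23 of 24 genes higher. On day 2 and day 5 it was 0.55 and 0.242, with 24 and 22 of 24 higher. In all 4 pairs 5 of 24 genes were higher (20.8%, against 8.07% of all genes). The inflammatory monocyte and cytotoxic lymphocyte medians moved with these pairs. The inflammatory monocyte medians were 0.75 for EPAT over vehicle and -0.08 for anti-PD-1 plus EPAT over anti-PD-1 on day 2, and -0.09 and 0.36 on day 5. The cytotoxic medians in the same order were 0.81, 0.00, -0.07 and 0.17, and the part of these cells in the interferon values was not tested. Irf7 averaged 90.6 ± 31.6 CPM in EPAT and 42.0 ± 12.5 CPM in vehicle on day 2, and 51.7 ± 17.6 CPM in EPAT and 56.8 ± 15.8 CPM in vehicle on day 5 (SD, n = 5 each).

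Interferon-gamma response genes followed the same outline, with 20 of 21 higher in EPAT against vehicle on day 2 (median 0.79) and 20 of 21 in anti-PD-1 plus EPAT against anti-PD-1 on day 5 (0.40). Their medians were -0.27 in anti-PD-1 plus EPAT against anti-PD-1 on day 2 and 0.03 in EPAT against vehicle on day 5. In the day 2 combination, replicate 2 had an interferon-gamma response score of 3.693, where the others had 6.181 to 7.493. In its control group, replicate 5 had 7.38, where the others had 6.049 to 6.153. The part of these libraries in the -0.27 was not tested. T cell genes differed in which pair stood out: 19 of 19 were higher in EPAT against vehicle on day 2, 19 of 19 on day 5 and 18 of 19 in the combination on day 5, but 1 of 19 in the combination on day 2. That group held replicate 2 with a T cell score of 0.542, against 2.21 for the lowest library of the arms without EPAT. MHC class I genes had medians of 0.54 and 0.11 on day 2 and -0.02 and 0.04 on day 5, each time EPAT over vehicle first.

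Whether the EPAT effect differed among the 4 pairs was tested per gene with 3 degrees of freedom, an alternative added after seeing the data. By edgeR 0 of 15070 genes passed (0%), the smallest adjusted p was 0.561, and 711 (4.72%) had an unadjusted p under 0.05. Of the 24 type I interferon response genes 2 were among these 711. The uneven pattern of the interferon lists was therefore not shown to differ between pairs in single genes. Per1, a clock gene induced by glucocorticoids and cyclic AMP, had the smallest p, with log2 differences of -0.22 and 0.48 on day 2 and 0.49 and -1.0 on day 5, EPAT over vehicle first in each.

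**Figure D3:**
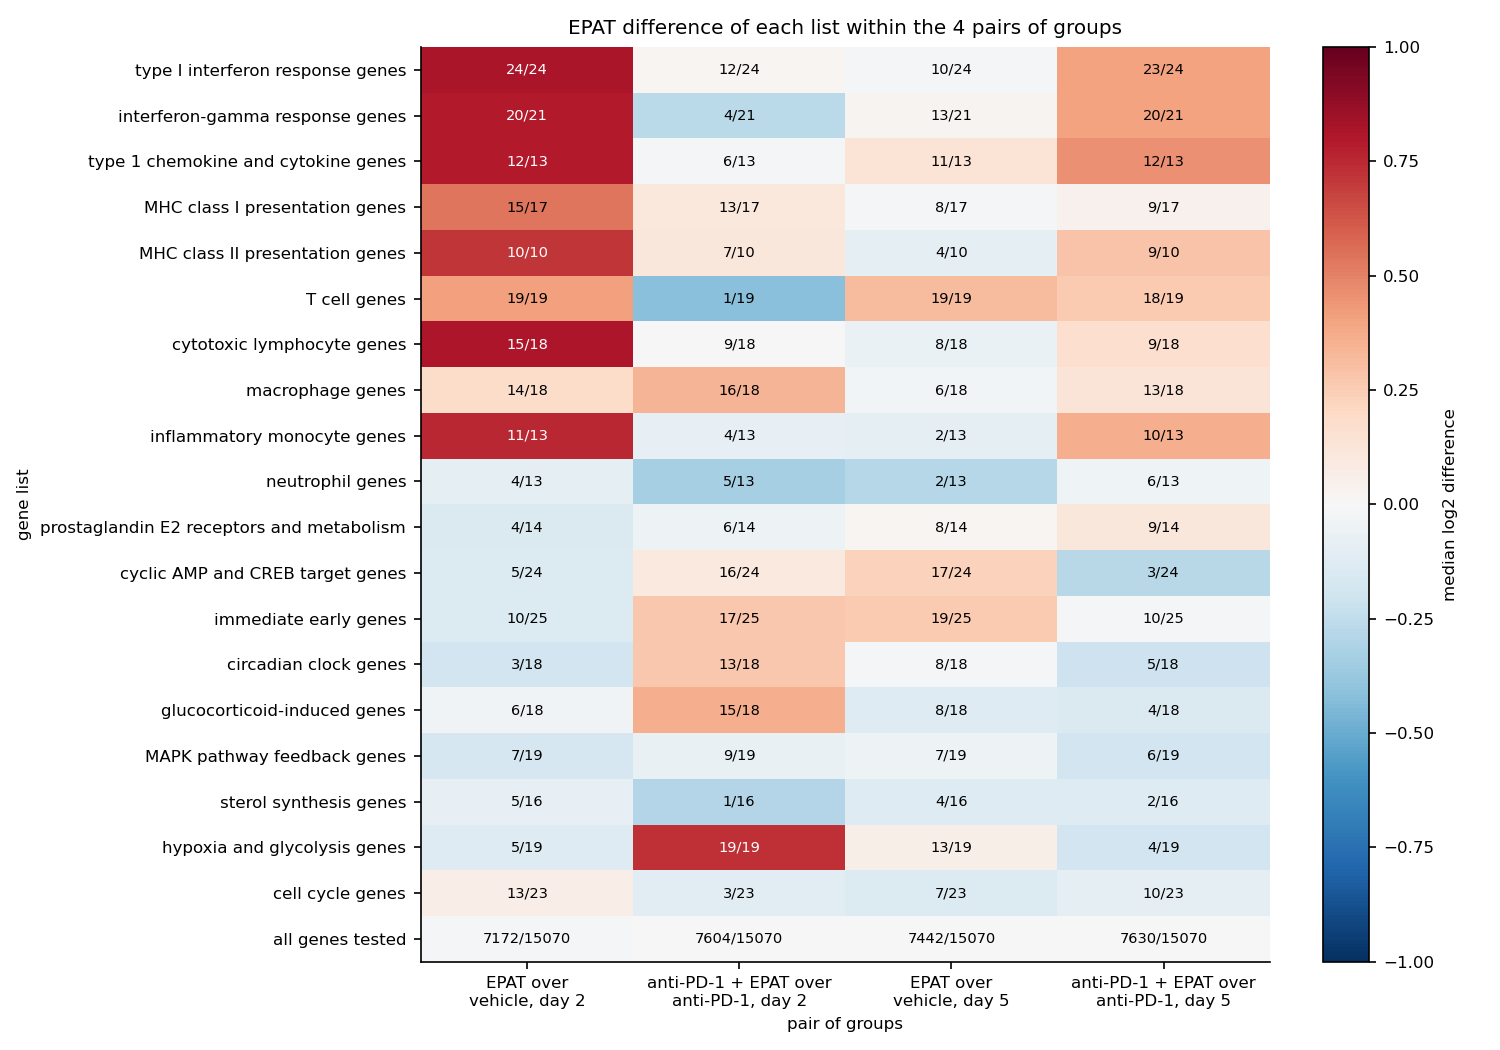
Colour gives the median over a list's genes of the difference between the EPAT group mean and its own control group mean in log2(CPM + 0.5), and the text in each cell the number of members higher out of those measured. The interferon lists are red in EPAT over vehicle on day 2 and in anti-PD-1 plus EPAT over anti-PD-1 on day 5. Type I lies at 0.81 and 0.40 there. In anti-PD-1 plus EPAT over anti-PD-1 on day 2, type I lies at 0.02 and interferon-gamma at -0.27. In EPAT over vehicle on day 5 they lie at -0.01 and 0.03. The day 2 combination group holds replicate 2, with scores of 3.898 for type I and 3.693 for interferon-gamma, the lowest of that group.

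The 7 comparisons of the design otherwise gave 0 calls by edgeR outside the averaged effect. For the EPAT by day interaction 0% passed and 333 genes (2.21%) had an unadjusted p under 0.05, and for EPAT by anti-PD-1 0% and 322 (2.14%). The EPAT effect on day 2 alone had 582 (3.86%) and on day 5 alone 605 (4.01%) at an unadjusted p under 0.05. Without anti-PD-1 there were 372 (2.47%) and with anti-PD-1 716 (4.75%). All of these shares lie below the 5.83% of the averaged effect. DESeq2 called 1 gene in the day interaction and 2 on day 5, and limma-voom with quality weights called 1, 139 on day 5 and 2 with anti-PD-1. Those 2 were Gpnmb and Lipa, a glycoprotein and the acid lipase of lysosomes in macrophages, at log2 fold changes of 1.49 and 1.14, and they had 0.73 ± 0.22 and 0.58 ± 0.20 SE in edgeR's fit over all arms.

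On day 5 the smallest adjusted p was 0.113, reached by Trabd2b and Fkbp5. Fkbp5, a glucocorticoid-induced co-chaperone of the glucocorticoid receptor, averaged 62.1 ± 22.8 CPM in EPAT, 63.1 ± 11.9 CPM in anti-PD-1 plus EPAT, 61.2 ± 9.06 CPM in vehicle and 50.2 ± 5.11 CPM in anti-PD-1 on day 2 (SD, n = 5, 5, 5 and 4). On day 5 it averaged 41.6 ± 10.6 CPM in EPAT, 25.1 ± 5.61 CPM in anti-PD-1 plus EPAT, 57.0 ± 12.9 CPM in vehicle and 54.3 ± 7.34 CPM in anti-PD-1 (SD, n = 5 each). The combination libraries of day 5, at 15.2 to 28.5 CPM, lay wholly below the anti-PD-1 libraries, at 44.5 to 61.9 CPM. The day 5 log2 fold change was -0.77 ± 0.16 SE and the day 5 minus day 2 interaction -0.95 ± 0.22 (edgeR adjusted p = 0.397). Trabd2b, a metalloprotease that cleaves Wnt proteins, had -0.72 ± 0.14 on day 5 and 0.07 ± 0.17 on day 2. DESeq2 called both genes on day 5. Leaving out single libraries brought between 0 and 3 calls on day 5: Btbd2, Fkbp5 and Trabd2b without vehicle day 5 replicate 3, Fkbp5 alone without EPAT day 2 replicate 1 or EPAT day 5 replicate 5, and Trabd2b alone without EPAT day 5 replicate 1.

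Immediate early genes, which answer growth factor and stress signals within minutes, were mixed, with 16 of 25 higher. At an unadjusted p under 0.05 there were 5 (20%), all higher, against 2.21% of all genes on the higher side. Egr1, a zinc finger transcription factor, was at 72.1 to 292 CPM (median 155) in the EPAT arms and at 54.6 to 196 CPM (median 109) in the arms without EPAT. The log2 fold change was 0.44 ± 0.16 SE over all arms, 0.01 on day 2 and 0.85 ± 0.20 on day 5 (edgeR adjusted p = 0.403 on day 5). On day 5 Egr1 averaged 242 ± 47.8 CPM in EPAT and 97.7 ± 15.8 CPM in vehicle (SD, n = 5 each), and these libraries did not overlap. On day 2 it averaged 96.3 ± 33.8 CPM in EPAT and 133 ± 22.9 CPM in vehicle. The log2 differences of Egr1 were -0.50 for EPAT over vehicle and 0.49 for anti-PD-1 plus EPAT over anti-PD-1 on day 2, and 1.29 and 0.49 on day 5. Its relative Egr2 averaged 14.1 ± 2.42 CPM in EPAT and 5.81 ± 1.63 CPM in vehicle on day 5, and its differences in the same order were -0.42, 0.51, 1.24 and 0.06. Both genes were thus lower in EPAT than in vehicle on day 2. The stress factors Atf3 (0.49 ± 0.16) and Ddit3 (0.37 ± 0.11), and the endoplasmic reticulum chaperone Hspa5 (0.23 ± 0.07), were higher over all arms without passing.

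Clock genes form the feedback loop of the daily rhythm, and of 18 measured, 5 were higher in the EPAT arms. Cry1, a repressor of the clock, averaged 17.5 ± 1.96 CPM in EPAT and 28.2 ± 3.82 CPM in vehicle on day 5, with no overlap, and 25.7 ± 1.83 CPM in EPAT and 21.8 ± 5.85 CPM in vehicle on day 2 (SD, n = 5 each). In anti-PD-1 plus EPAT over anti-PD-1 its log2 difference was -0.06 on day 2 and -0.21 on day 5, against 0.26 and -0.67 in EPAT over vehicle. Its log2 fold change was -0.44 ± 0.11 SE on day 5 and 0.10 on day 2, with an interaction of -0.54 ± 0.15 (edgeR adjusted p = 1.00). The smallest adjusted p of the day interaction, 0.151, belonged to Ccdc28a, a coiled-coil gene, at -0.28 on day 2 and 0.46 ± 0.11 on day 5. Both DESeq2 and limma-voom with quality weights called the interaction of Ccdc28a.

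**Figure D4:**
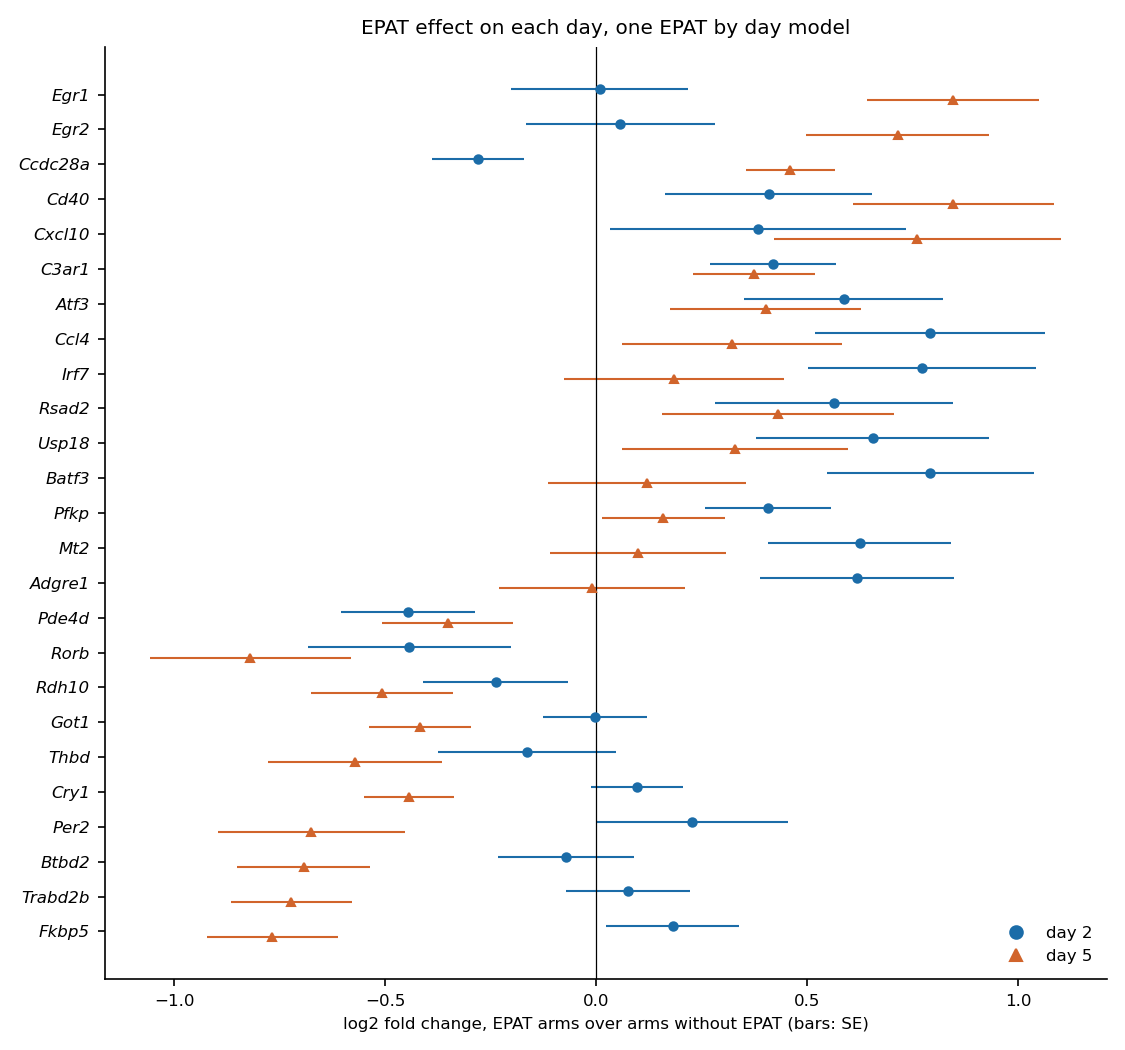
Log2 fold change of EPAT arms over arms without EPAT on day 2 (circles) and day 5 (triangles) with SE bars, for 25 genes, from 1 model with an EPAT by day term. Fkbp5, Trabd2b, Btbd2 and Cry1 lie near 0 on day 2 and below 0 on day 5, while Egr1 lies at 0.01 on day 2 and 0.85 on day 5.

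No myeloid gene of the lists passed (edgeR). Macrophage genes were higher for 14 of 18 (median 0.10), with 1 higher at an unadjusted p under 0.05 (5.556%, against 2.21% of all genes). It was C1qa, a complement component made by tissue macrophages (0.29 ± 0.13 SE). Within the pairs 14 and 16 of 18 macrophage genes were higher on day 2, and 6 and 13 on day 5, EPAT over vehicle first. Their median log2 fold change over all arms was -0.01 in the libraries without lung transcripts. Adgre1, the F4/80 antigen, was at 62.4 to 266 CPM (median 122) in the EPAT arms and at 62.7 to 295 CPM (median 92.6) in the arms without EPAT, a log2 fold change of 0.29 ± 0.17. Of inflammatory monocyte genes 8 of 13 were higher (median 0.12), among them the chemokine receptor Ccr2 (0.34 ± 0.17). Within the pairs the inflammatory monocyte counts were 11 of 13 for EPAT over vehicle and 4 of 13 for anti-PD-1 plus EPAT over anti-PD-1 on day 2, and 2 of 13 and 10 of 13 on day 5. Dendritic cell genes were higher for 8 of 14, with Batf3, needed to form conventional type 1 dendritic cells, at 0.44 ± 0.18. Of the 14, 2 were higher in all 4 pairs (14.3%, against 8.07% of all genes). Another 2, Ccr7 and Fscn1, were lower in all 4 (14.3%, against 8.18%), so this list did not lean one way. Neutrophil genes were lower for 10 of 13 (median -0.19). The gelatinase Mmp9 was at 7.33 to 123 CPM (median 53.1) with EPAT and at 14.1 to 396 CPM (median 74.6) without EPAT, a log2 fold change of -0.80 ± 0.34. The neutrophil median changed sign to 0.27 under limma-voom with quality weights, to 0.06 under limma-trend, to 0.14 in the libraries with lung transcripts and to 0.09 without anti-PD-1 day 5 replicate 4.

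Of genes that mark tumour cell growth, 16 of 19 MAPK pathway feedback genes were lower (median -0.16) with 0 at an unadjusted p under 0.05 by edgeR. These genes report signalling below BRAF, and they include the inhibitor Spred1 (-0.22 ± 0.12 SE) and the transcription factor Etv1 (-0.26 ± 0.17). Sterol synthesis genes, targets of SREBP2, were lower for 15 of 16 (median -0.21), and 8 of 16 were lower in all 4 pairs (50%, against 8.18% of all genes). Insig1, the sterol sensor that restrains SREBP, was at 4.31 to 40.5 CPM (median 9.70) in the EPAT arms and at 7.37 to 38.9 CPM (median 14.8) in the arms without EPAT, a log2 fold change of -0.54 ± 0.23 (edgeR adjusted p = 0.826). Sqle, an enzyme of cholesterol synthesis, had -0.30 ± 0.17. The list median ran from -0.26 to -0.12 over the fits that each left out 1 library. Cell cycle genes were lower for 18 of 23 (median -0.09), with the mitotic kinase Aurkb at -0.27 ± 0.16.

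Hypoxia and glycolysis genes were higher for 12 of 19 (median 0.13), with Adm, Car9, Ero1l and Pfkp at an unadjusted p under 0.05. Those genes were 21.05% of the list, against 2.21% of all genes on the higher side. Adm, the vasodilator adrenomedullin, was at 2.54 to 56.2 CPM (median 8.23) in the EPAT arms and at 1.55 to 14.9 CPM (median 4.50) in the arms without EPAT. The oxidase Ero1l reached 450 CPM in anti-PD-1 plus EPAT day 2 replicate 2, where the next library had 107 CPM. That library also held the highest Adm and Car9 values, and without it the list median was 0.01. Between pairs, 19 of 19 genes were higher in the combination against anti-PD-1 on day 2, and 5, 13 and 4 of 19 in EPAT against vehicle on day 2, EPAT against vehicle on day 5 and the combination against anti-PD-1 on day 5. The metallothioneins Mt1 and Mt2, which bind zinc, had log2 fold changes of 0.32 ± 0.14 and 0.35 ± 0.16. Rdh10, a retinol dehydrogenase, and Got1, an aminotransferase of the malate-aspartate shuttle, had -0.38 ± 0.12 and -0.22 ± 0.09.

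The counts of the further lists stand beside 6776 of 15070 genes higher by fold and a median of -0.02 over all genes tested. Of NF-kappaB feedback genes, which restrain inflammatory signalling, 12 of 16 were higher (median log2 fold change 0.10), with the inhibitor Tnip3 at 0.56 ± 0.19 SE, and 7 of 16 were higher in all 4 pairs (43.8%, against 8.07% of all genes). Checkpoint receptor genes were higher for 7 of 10 (median 0.28) and regulatory T cell genes for 7 of 9 (0.09). Tumour-promoting inflammation genes, among them cytokines that prostaglandin E2 can induce, were higher for 8 of 16 (0.00). Collagen and fibroblast genes were higher for 10 of 17 (0.03) and endothelial genes for 7 of 13 (0.01), so the stromal lists did not lean one way. Glucocorticoid-induced genes were higher for 8 of 18 (-0.05), aryl hydrocarbon and NRF2 response genes for 8 of 14 (0.03), and heat shock genes for 4 of 14 (-0.02). Retinoid metabolism genes were higher for 7 of 18 (-0.03), malate-aspartate shuttle genes for 5 of 8 (0.02) and metallothionein and zinc genes for 4 of 11 (-0.11). Mitochondrially encoded genes were higher for 3 of 8 (-0.04), erythroid genes for 1 of 5 (-0.06) and the 4 melanocyte genes for 2 (-0.06).

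Larger fold changes were found in genes of other tissues. Of 11 adipocyte genes 9 were lower in the EPAT arms at an unadjusted p under 0.05 (median -1.85), against 3.62% of all genes, and the same number were lower in all 4 pairs (81.8%, against 8.18%). Adipoq, the adipocyte hormone adiponectin, was at 0.315 to 42.4 CPM (median 1.96) in the EPAT arms and at 0.323 to 239 CPM (median 11) in the arms without EPAT, a log2 fold change of -2.41 ± 0.59 SE (edgeR adjusted p = 0.447). Cfd, adipsin, was at 0.787 to 87.9 CPM (median 8.34) with EPAT and at 2.24 to 805 CPM (median 31.3) without EPAT, a log2 fold change of -2.74 ± 0.60 (adjusted p = 0.253). Lep and Plin1, leptin and a lipid droplet protein, had -1.85 ± 0.54 and -1.73 ± 0.60. Pparg and Lpl, which macrophages also express, had 0.14 ± 0.23 and 0.51 ± 0.35. The summed adipocyte level was 72.4 to 604 CPM (median 146) in the EPAT arms and 40.3 to 1972 CPM (median 135) in the arms without EPAT. Without vehicle day 2 replicate 1, the highest, the list median was -1.38. Without the 3 libraries with B cell, adipocyte or keratinocyte content it was -1.79. How much adipose tissue a tumour sample held, and its part in these values and in Slc22a3, was not tested beyond the model with the adipocyte score.

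B and plasma cell genes were lower for 7 of 7 measured (median -1.81). Of these, 5 (71.43%) were lower at an unadjusted p under 0.05, against 3.62% of all genes. Ms4a1, which encodes CD20, was at 0 to 1.10 CPM (median 0.213) in the EPAT arms and at 0.0804 to 95 CPM (median 0.375) in the arms without EPAT. Its highest value, and that of Glycam1, a lymph node vessel ligand of L-selectin at 525 CPM, came from vehicle day 2 replicate 1. Without that library the list median was -0.43. Skeletal muscle genes were lower for 14 of 14 by the fit (median -0.39), while the median muscle score was higher in the EPAT arms, 5.29 against 4.69 in the arms without EPAT, and the fit's median was 0.09 without anti-PD-1 day 5 replicate 5. Their pairs ran in opposite directions, with medians of 3.22 and -0.80 on day 2 and -1.07 and 0.85 on day 5, EPAT over vehicle first in each. The muscle medians were positive in the pairs where the type I interferon medians were 0.81 and 0.40, and their part in those values was not tested. With the muscle score as a covariate the type I interferon median was 0.34. Krt14, a basal keratinocyte keratin, exceeded 50 CPM in 1 EPAT library and in 1 library without EPAT, and had a log2 fold change of -0.19 ± 1.81. The 7 lung epithelium genes had a median of -0.23, with 0 at an unadjusted p under 0.05 by edgeR.

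**Figure D5:**
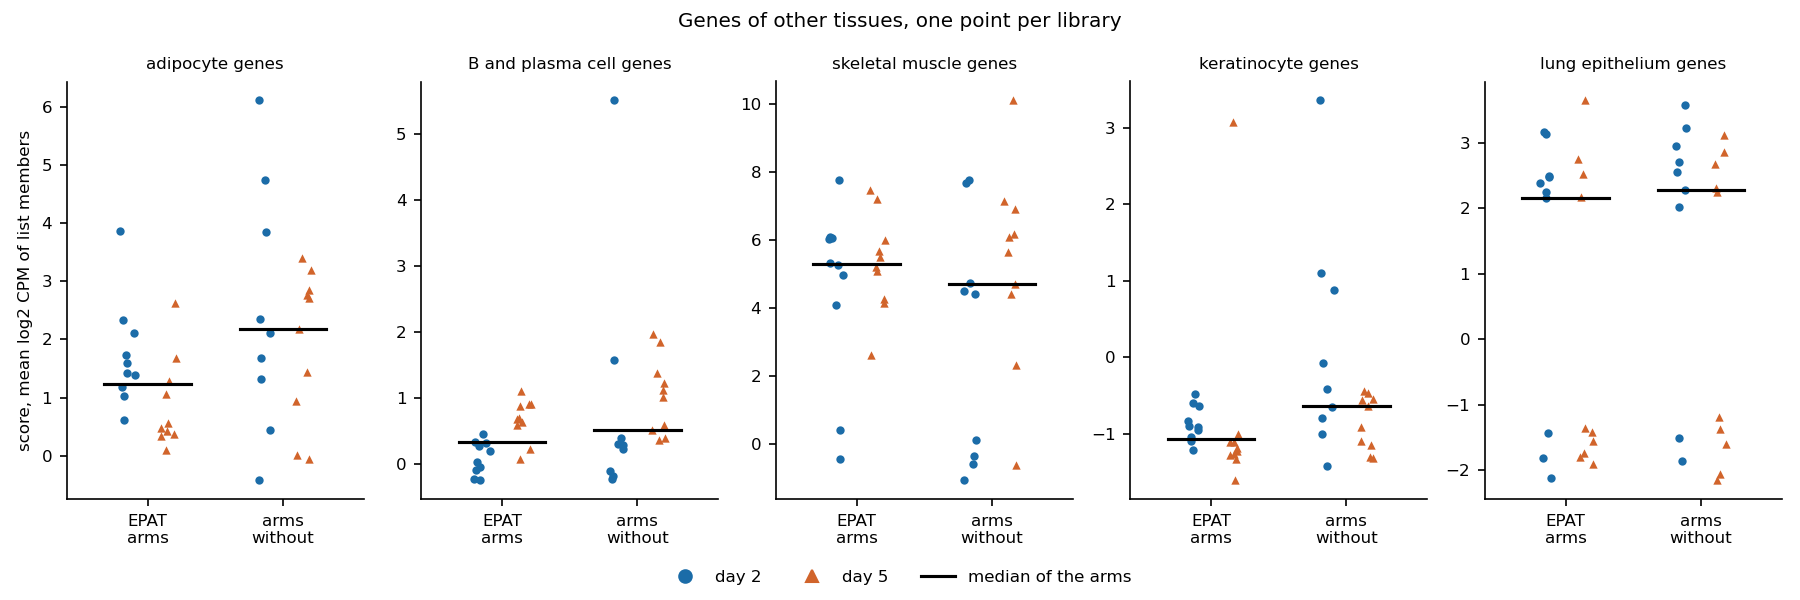
Score of 5 tissue lists in each library, the mean log2 CPM of the list's measured genes, with EPAT arms left of arms without EPAT, circles for day 2, triangles for day 5 and a line at the median. The adipocyte medians are 1.23 and 2.18, 1 control library stands at 5.51 in B and plasma cell genes, and the lung scores fall into 2 clusters in both sets of arms.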

How the data were processed

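Tumour RNA of 39 samples was measured by QuantSeq 3' forward libraries from 500 ng of total RNA, per the labels. The authors deposited whole-number counts per Ensembl gene for 39179 genes and log2 CPM values for 16095 genes. The submitters' processing notes name bcl2fastq, STAR, featureCounts and limma with the builds mm10 and GRCm38, with versions, annotation and strand setting not given in the sources used here. Reads of overlapping or near-identical genes are therefore uncertain. Symbols came from GENCODE for GRCm38 (37607 identifiers matched).

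Counts were fitted with edgeR 4.0.16 in R 4.3.3 (quasi-likelihood, TMM, filterByExpr with a minimum count of 10 and total of 15), on all 39 libraries with EPAT, day and anti-PD-1 as terms, leaving 35 residual degrees of freedom, or 34 with an interaction. Tests were 2-sided, adjusted by Benjamini-Hochberg over all genes tested and passed under 0.05. SE is the log2 fold change over the root of its F. The common biological coefficient of variation was 0.326. Depths of 8385741 to 15558113 counts set the precision. No 2 libraries of 1 group were alike to within counting noise (lowest chi-square per gene 9.84).

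Alternatives were RLE size factors, no filter, a minimum count of 30, DESeq2 1.42.0, limma 3.58.1 (voom with quality weights, and trend on the deposited log2 CPM), a replicate block, terms for lung transcripts, muscle or adipocyte score, 8 group means, no covariates, subsets of libraries and each library left out. The scripts were tested on simulated data.

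Genes named were those passing with a mean log2 CPM of at least 1, filled up to 5 per direction by smallest p, the 3 with the smallest p of each other test, up to 4 per list by p, and a fixed set of receptors, immune and day-dependent genes; others, chosen after their values were seen, are Slc22a3, genes that other tools called and list members shown for sequence or contrast. Members, the 39 lists and the rule were chosen with earlier results of these data known. Some genes that the rule names are not reported here.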

Additional observations from a re-analysis of the deposited data

Results flagged for a closer look

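For 14 genes and 5 list scores, the values in each group of 4 or 5 libraries were examined, 152 sets in all. Of these, 17 held a library far from the others. The limit used is set for about 1 in 20 by chance. The same libraries recur in these sets and some items vary together, so that share is only a rough guide. In the EPAT arms the values were as follows. C3ar1 was at 515 CPM in anti-PD-1 plus EPAT day 5 replicate 3, where the others of the group had 279 to 345 CPM. Egr1 was at 156 CPM in EPAT day 2 replicate 4 (others 72.1 to 85.0 CPM), and Fkbp5 at 15.2 CPM in anti-PD-1 plus EPAT day 5 replicate 1 (others 26.2 to 28.5 CPM). Ptger4 was at 11.9 CPM in EPAT day 2 replicate 3 (others 15.0 to 16.2 CPM), and Ptgs2 at 320 CPM in EPAT day 5 replicate 2 (others 60.4 to 89.0 CPM). EPAT day 2 replicate 1 had Adipoq at 42.4 CPM (others 1.72 to 8.96 CPM), Cfd at 87.9 CPM (others 8.05 to 26.8 CPM) and a muscle score of -0.44 (others 6.04 to 7.75). The adipocyte score was 1.68 in EPAT day 5 replicate 5 (others 0.34 to 0.57), and the muscle score 0.44 in anti-PD-1 plus EPAT day 2 replicate 3 (others 4.08 to 5.31).

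Among libraries without EPAT, vehicle day 2 replicate 1 had Adipoq at 239 CPM (others 0.323 to 30.8 CPM) and Cfd at 805 CPM (others 3.10 to 124 CPM). Anti-PD-1 day 2 replicate 4 had Adipoq at 64.0 CPM (others 3.69 to 11 CPM) and Cfd at 413 CPM (others 11.3 to 29 CPM). Anti-PD-1 day 2 replicate 5 had Rsad2 at 136 CPM (others 37.4 to 48.7 CPM) and an interferon-gamma response score of 7.38 (others 6.05 to 6.15). The T cell score was 3.90 in vehicle day 5 replicate 3 (others 2.77 to 3.03).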

How the results depend on the processing

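Over all arms the count of genes called, 1 as reported, was 0 with no low-count filter, with a minimum count of 30, under limma-trend, with the replicate block, with a term for lung transcripts, with the muscle score, without the 3 libraries that stand apart, with 8 group means, with no covariates and in libraries without lung transcripts. It was 5 under DESeq2, 41 under limma-voom with quality weights and 2 (Cd72 and Slamf7) in libraries with lung transcripts, and 0 to 1 when single libraries were left out. With the adipocyte score it was 1, a different gene (Lpl, 1.39). Lpl is itself a member of that score, so its value in this fit is not independent of the score and decides nothing about Lpl. Slc22a3 did not pass in these fits, except under RLE size factors and DESeq2, and its log2 fold change ran from -3.02 to -2.49 over the left-out libraries. The call was kept without vehicle day 2 replicates 2, 4 or 5, anti-PD-1 day 2 replicates 1, 2 or 5, anti-PD-1 day 5 replicates 1 or 5, EPAT day 2 replicate 1, anti-PD-1 plus EPAT day 2 replicate 4 or anti-PD-1 plus EPAT day 5 replicate 2, and lost without any of the other 28. The paired fit with the replicate block gave -2.77 (adjusted p = 0.0848). The median correlation was 0.005 over 133 same-number pairs of samples from different groups, and 0.0007 over pairs of different numbers. By the median, samples sharing a number were thus hardly more alike than others. Of the same-number pairs 48 correlated above 0.1, but this was not counted for different numbers, so it decides nothing about pairing.

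The EPAT by day interaction had 0 calls, against 1 under DESeq2 and 1 under limma-voom. Day 5 had 0, against 2 under DESeq2, 139 under limma-voom and 0 to 3 over the left-out libraries. With anti-PD-1 there were 0, against 2 under limma-voom. The test of a difference between pairs gave 0 to 1, the 1 without vehicle day 5 replicate 5. The cause of these differences was not tested.

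Genes near 0 changed sign. Ptger2 was at 0.005 with no filter, 0.21 under limma-voom, 0.006 under limma-trend, 0.015 with the replicate block, 0.004 with the lung term, 0.065 with the adipocyte score, 0.013 with 8 group means and 0.11 in libraries with lung transcripts. Crem was at -0.034 under limma-trend, -0.007 with the adipocyte score, -0.006 without the 3 libraries, -0.001 with 8 group means and -0.14 in libraries without lung transcripts. Hpgd was at 0.56 under limma-voom, 0.19 under limma-trend, 0.39 with the adipocyte score and 0.078 with lung transcripts, and Ptgs2 at 0.021 with the replicate block, 0.012 without the 3 libraries and 0.19 with lung transcripts. Limma-voom gave Per1 0.014, Myh7 0.29 and Myl2 0.26. The adipocyte score gave Thrsp 0.31, Retn 0.029, Glycam1 0.45, Ptger3 0.56 and Dusp1 -0.034. Thrsp and Retn are members of that score, so their values there are not independent of it. Ptger3 was at 0.10 without the 3 libraries and 0.10 without lung transcripts. Libraries with lung transcripts gave Nr4a1 0.083 and Areg 0.052, and those without gave Krt14 1.15, Pdcd1 -0.30, Adgre1 -0.052, Mmp9 0.17, Ptger1 0.009, Dusp1 -0.24 and Pparg -0.12. Over left-out libraries Nr4a1 ran from -0.20 to 0.070, Crem from -0.029 to 0.063, Krt14 from -3.15 to 1.32, Ptger2 from -0.093 to 0.091, Ptger3 from -0.75 to 0.11, Hpgd from -0.22 to 0.086 and Areg from -0.13 to 0.059. Of the other settings, 1400 log2 fold changes kept direction and side of the threshold, 39 reversed, 12 lost and 11 gained the call. DESeq2 gave no adjusted p for 15 to 26 genes per comparison. Slc22a3, Igkc, Glycam1, Ms4a1, Krt14, Ptger3 and Lep had no value at a minimum count of 30, nor Ms4a1 in libraries without lung transcripts. Depth limits genes such as Slc22a3, at a median of 1 count in EPAT libraries.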
